A study of Homo sapiens with 6 samples.

Results

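The genes described here form the transcription factor network around MAX. They are MYC, MYCL, MAX, MXD1, MXI1, MXD3, MXD4, MNT and MGA, chosen by symbol and found by NCBI Gene identifier. These are 9 of the 25702 genes counted, and all 9 were among the 15431 genes with enough counts to be tested. RNA was measured in K562, an established myeloid leukaemia cell line of human origin, after transient transfection with the CMV-promoter plasmid pCMV-HA, which adds an HA tag at the carboxyl end of what it expresses. The plasmid was empty (EV), carried the MXD3 coding sequence (MXD3), or carried that of the fusion STIM1::MXD3, with 2 libraries each and no further treatment in any of the 6. According to the study, the libraries of a group are independent transfections, and each holds transfected and untransfected cells together, so a level is an average over the culture.

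MAX is the shared partner of the network. MYC and MYCL bind DNA as dimers with MAX and activate transcription. MXD1, MXI1, MXD3, MXD4 and MNT dimerise with MAX on the same short DNA element, the E-box, and recruit the SIN3 corepressor through a domain at their amino end. MGA also pairs with MAX and belongs to a Polycomb complex (PRC1.6). The fusion gene joins the start of STIM1, which encodes an endoplasmic reticulum calcium sensor, to MXD3, and the study asked what the fusion does to transcription under MYC.

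The study found the fusion by a sequencing assay and checked its junction by PCR and Sanger sequencing. The 4 primers are shown because they locate both sides of that junction in the reference. Each was found in the coding sequence of its gene in GRCh37.
STIM1-F: gatgtatgcgtccgtcttgc
STIM1-F2: gcctcagccatagtcacag
MXD3-R: gtcgcttcttcctcctgtgg
MXD3-R2: cacagggacgcataaccat
The forward primers lay in exon 1 of 13 of STIM1, at chr11:3877504-3877523 and chr11:3877565-3877583. The reverse primers lay in exon 2 of 6 of MXD3, at chr5:176738414-176738433 and chr5:176738458-176738476, and are written on the strand opposite to the gene. Exon 1 of MXD3 holds 70 coding bases, and the corepressor-binding domain is at that end of the protein. The counts are given per gene, so they do not separate plasmid from chromosomal transcripts, nor exon 1 of MXD3 from the rest.

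The E-box searched for was CACGTG, which reads the same on both strands. RefSeq promoter windows (GRCh38.p14, 250 bases before to 50 bases after a start site) were found for 8 of the 9 members, in 13 windows, and MYC has no entry in that table. The motif was present for MXD4 and MNT. Both sites are shown with 10 bases on each side and the motif in capitals, because they are the network genes whose own promoter window carries the letters that network dimers bind.
MXD4: gccgggccacCACGTGctgttgctaa
MNT: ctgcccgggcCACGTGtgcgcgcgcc
The MXD4 stretch is chr4:2262332-2262357 on the minus strand, with the motif starting 238 bases before the start site. The MNT stretch is chr17:2401238-2401263 on the minus strand, with the motif starting 193 bases before it. Of all 35116 windows of this length, 2548 (7.3%) held the motif, as did 9.2% of the windows of genes tested. A match is a description of letters and not a measured binding site.

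Library totals ran from 53048343 to 63835779 counts, and the lowest count of any member was 475, for MXD3 in EV replicate 1. All 12 K562 marker genes reached 1 CPM in the libraries, as did 1 of 5 T cell, 1 of 5 B cell, 1 of 5 monocyte, 2 of 5 fibroblast and 4 of 5 epithelial markers, with CD163 and MS4A1 at 0. Levels below are counts scaled to library size by TMM (counts-per-million, CPM), given as mean ± SD over 2 libraries. Differences are log2 fold changes ± SE from the quasi-likelihood test of edgeR, with the 95% interval in brackets and p-values adjusted over all genes tested. Unless a block for the replicate number is named, the plasmid comparisons leave that number out of the fit. Their SE then includes the difference between replicate numbers.

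Each gene is given with its Gene ID and GRCh37 position where it is first described. MXD3 (83463, chr5:176728462-176739758, minus strand), the gene carried by the plasmids, was at 9.33 and 11.7 CPM in the EV libraries. It was at 2523 and 2162 CPM in the MXD3 libraries, and at 1975 and 1849 CPM in the STIM1::MXD3 libraries. Every library with an MXD3-carrying plasmid was thus far above both EV libraries, as the labels give it. The rise was 7.80 ± 0.21 on the log2 scale with MXD3 (223-fold, adjusted p = 4.37e-05, edgeR) and 7.51 ± 0.21 with the fusion (182-fold, adjusted p = 5.23e-05, edgeR). In both comparisons MXD3 was the single gene called, which is 0.00648% of the genes tested in each. The fusion libraries were both below the MXD3 libraries, by 0.29 ± 0.15 on the log2 scale [-0.66, 0.07], which did not pass (adjusted p = 1.00, edgeR). According to the study, the fusion lacks the amino-terminal part of MXD3. Its plasmid thus holds a shorter stretch of MXD3 to be counted, for which the values were not corrected. RAB24 and PRELID1 share 926 and 1148 bases with the 4743 bases of MXD3 exons. In EV, with MXD3 and with the fusion, the level of RAB24 was 43.8 ± 0.18, 39.4 ± 5.76 and 40.9 ± 6.91 CPM. That of PRELID1 was 64.6 ± 0.15, 62.9 ± 10.2 and 73.6 ± 4.42 CPM in the same order, so neither neighbour moved by a factor like that of MXD3.

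STIM1, the other gene of the fusion, stood at 205 and 176 CPM in EV, at 187 and 159 CPM with MXD3, and at 471 and 453 CPM with STIM1::MXD3. Both fusion libraries were above the other 4. The difference was 1.28 ± 0.14 against EV and 1.42 ± 0.14 against MXD3 on the log2 scale, with adjusted p-values of 0.359 and 0.381 in edgeR. With the replicate number as a block in the same test these became 4.27e-07 and 1.97e-07, and DESeq2 without the block gave 3.42e-09 and 1.42e-11.

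**Figure D1:**
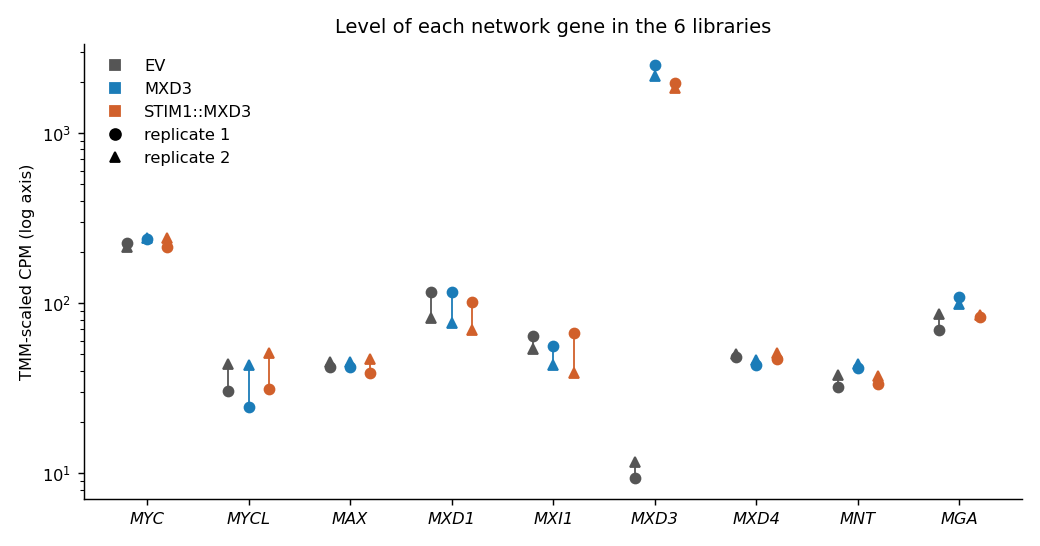
TMM-scaled CPM (log axis) of the 9 network genes in the 6 libraries, with 1 point per library, colour for the plasmid and shape for the replicate number, and a line joining the 2 libraries of a group. MXD3 is near 10 CPM in EV and between 1849 and 2523 CPM in the MXD3 and STIM1::MXD3 groups. MYCL, MXD1 and MXI1 separate by replicate number.

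Apart from MXD3, no member was called in any plasmid comparison by edgeR, with or without the replicate block, and DESeq2 with the block called MGA in MXD3 against EV. MYC (4609, chr8:128747680-128755197, plus strand), the activator that drives growth and proliferation genes, had 225 and 213 CPM in EV. It had 237 and 241 CPM with MXD3, and 213 and 241 CPM with STIM1::MXD3. The MXD3 libraries were both above the EV libraries, and the fusion libraries spanned nearly the whole range of the other groups. The log2 fold change of MYC was 0.12 ± 0.12 with MXD3 against EV [-0.17, 0.42] and 0.05 ± 0.12 with the fusion against EV [-0.24, 0.34] (adjusted p = 0.999 and 1.00, edgeR). The replicate 1 libraries put MYC at -0.08 with the fusion and the replicate 2 libraries at 0.18, on the log2 scale. These intervals bound a change in MYC transcript at 0.42 on the log2 scale upwards and 0.24 downwards for either construct against EV. They concern the transcript and not the MYC protein.

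MYCL (4610, chr1:40361100-40367928, minus strand), a paralogue of MYC that also needs MAX, differed more between replicate numbers than between plasmids. Its replicate 1 libraries stood at 30.6 CPM (EV), 24.6 CPM (MXD3) and 31.1 CPM (STIM1::MXD3). Its replicate 2 libraries stood at 44.04, 43.4 and 50.6 CPM in that order. All 3 replicate 2 libraries were above all 3 replicate 1 libraries, whatever the plasmid. The log2 fold change was -0.14 ± 0.34 with MXD3 against EV [-0.95, 0.68] and 0.13 ± 0.34 with the fusion against EV [-0.68, 0.94]. Both had an adjusted p of 0.999 or more in edgeR. With the replicate block the values were -0.17 ± 0.11 and 0.11 ± 0.11 in the same order (adjusted p = 0.526 and 0.833, edgeR).

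MAX (4149, chr14:65472892-65569413, minus strand) had group means between 42.7 and 43.6 CPM. Its EV libraries had 41.9 and 45.0 CPM, its MXD3 libraries 42.0 and 45.2 CPM, and its fusion libraries 38.7 and 46.6 CPM. The range of the fusion libraries contained the other 4. The log2 fold change against EV had an interval of -0.34 to 0.35 with MXD3 and of -0.37 to 0.32 with the fusion (adjusted p = 0.999 and 1.00, edgeR). FNTB, on the opposite strand, shares 822 of the 6257 exon bases of MAX, and whether strand was used in counting is not stated.

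Of the MXD family repressors on the chromosome, MXD1 (4084, chr2:70124820-70170077, plus strand), which is induced in many lineages as cells differentiate, stood at 116 CPM in EV replicate 1 and MXD3 replicate 1 and at 102 CPM in STIM1::MXD3 replicate 1. In replicate 2 it stood at 81.8, 76.3 and 69.5 CPM in the same order. Each replicate 2 library was below each replicate 1 library. MXI1 (4601, chr10:111967363-112047123, plus strand), also known as MXD2, had 64.3 and 54.0 CPM for EV, 55.8 and 43.0 CPM for MXD3, and 66.9 and 38.8 CPM for the fusion. The fusion libraries were its highest and its lowest. MXD4 (10608, chr4:2249159-2263836, minus strand) lay within a narrower range, at 48.4 and 49.97 CPM for EV, 43.2 and 46.1 CPM for MXD3, and 46.7 and 50.8 CPM for the fusion. Its 2 MXD3 libraries were below the other 4.

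Against EV, the log2 fold change with the fusion was -0.20 ± 0.28 [-0.86, 0.46] for MXD1, -0.16 ± 0.27 [-0.80, 0.47] for MXI1 and -0.01 ± 0.12 [-0.31, 0.28] for MXD4. With MXD3 it was -0.04 ± 0.28 [-0.70, 0.62], -0.26 ± 0.27 [-0.89, 0.38] and -0.14 ± 0.12 [-0.44, 0.16] in the same order. Each adjusted p was 0.999 or more in edgeR. The intervals of MXD1 and MXI1 were wider than that of MXD4, and their libraries differed more within a group. With the replicate block the SE for the fusion against EV was 0.09 for MXD1, 0.12 for MXI1 and 0.10 for MXD4, and the log2 fold changes were -0.21, -0.20 and -0.01. Their adjusted p-values were 0.532, 0.666 and 0.978 in edgeR.

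MGA (23269, chr15:41913332-42065279, plus strand), the largest protein of the network, and MNT (4335, chr17:2287367-2304398, minus strand), its broadly expressed repressor, had the largest log2 fold changes of MXD3 against EV among the members other than MXD3. MGA stood at 69.1 and 86.1 CPM in EV, at 108 and 99.1 CPM with MXD3, and at 82.3 and 85.5 CPM with the fusion. Both MXD3 libraries were above the other 4. The log2 fold change with MXD3 against EV was 0.42 ± 0.14 [0.08, 0.76], or 1.33-fold, with an unadjusted p of 0.0234 and an adjusted p of 0.999 in edgeR. It was 0.64 between the replicate 1 libraries and 0.20 between the replicate 2 libraries, and it was 0.27 when EV replicate 1 was left out. With the replicate block it had an adjusted p of 0.0928 in edgeR and 0.022 in DESeq2, where it passed. These fits called 0.292% and 3.15% of the genes they tested.

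MNT stood at 31.9 and 37.5 CPM in EV, at 41.2 and 44.1 CPM with MXD3, and at 33.2 and 37.3 CPM with the fusion. Again both MXD3 libraries were above the other 4. Its log2 fold change with MXD3 against EV was 0.30 ± 0.15 [-0.05, 0.64], with adjusted p-values of 0.999 without the block and 0.199 with it (edgeR). It was 0.37 between the replicate 1 libraries and 0.23 between the replicate 2 libraries, and 0.19 without EV replicate 1. With the fusion against EV the values were 0.11 ± 0.14 [-0.23, 0.45] for MGA and 0.02 ± 0.15 [-0.32, 0.37] for MNT.

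The direct comparison of the constructs tests these differences with no EV level in the log2 fold change. The EV libraries still enter its SE and p-values, since all 6 libraries share 1 fit. MGA was lower with the fusion than with MXD3 by 0.30 ± 0.14 [-0.64, 0.04] and MNT by 0.27 ± 0.15 [-0.62, 0.07] on the log2 scale. The unadjusted p-values were 0.0728 and 0.102, and both adjusted p-values were 1.00 in edgeR, or 0.666 and 0.696 with the block. MYC differed by -0.07 ± 0.12 [-0.36, 0.22], MYCL by 0.27 ± 0.34 [-0.55, 1.08] and MXD4 by 0.13 ± 0.12 [-0.17, 0.42]. All adjusted p-values for the members were 1.00 in edgeR.

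As counts, 4 of the 8 members other than MXD3 were higher with the fusion than in EV, 4 with MXD3 than in EV, and 3 with the fusion than with MXD3. Their median log2 fold change was 0.004, -0.018 and -0.051, beside 0.010, 0.001 and 0.008 over all genes tested. Of the 8, 0 were called in edgeR in each comparison, and 0, 1 and 0 had an unadjusted p under 0.05, where 147, 287 and 156 of all genes tested had. In the third comparison 0% of all genes was called. With the replicate block in edgeR 0 of the 8 were called as well, where 0.0194%, 0.292% and 0.00648% of all genes were. In these fits 1312, 2149 and 1001 of the 15431 genes tested had an unadjusted p under 0.05. The same held for 1, 3 and 3 of the 8 members. These were MXD1 with the fusion, MGA, MNT and MXI1 with MXD3, and MGA, MNT and MYCL between the constructs. DESeq2 called 0 of the 8 in each comparison without the block, and 0, 1 and 0 with it, the 1 being MGA. Between the constructs, DESeq2 with the block gave an adjusted p to only MYC of the 8 (0.729). MYCL, MAX, MXD1, MXI1, MXD4, MNT and MGA received none there, so they could not be called. Over all genes DESeq2 called 3, 3 and 1 without the block and 26, 252 and 14 with it.

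With 2 libraries a group, libraries that do not overlap are common. The fusion and EV libraries did not overlap for 0 of the 8 members, beside 22.0% of all genes. The MXD3 and EV libraries did not overlap for 4 of the 8, beside 31.0% of all genes, with MYC, MNT and MGA higher and MXD4 lower. The constructs did not overlap for 3 of the 8, beside 21.1%, with MXD4 higher in the fusion and MNT and MGA lower. The 2 comparisons against EV share the EV libraries, so their values are not independent of each other.

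**Figure D2:**
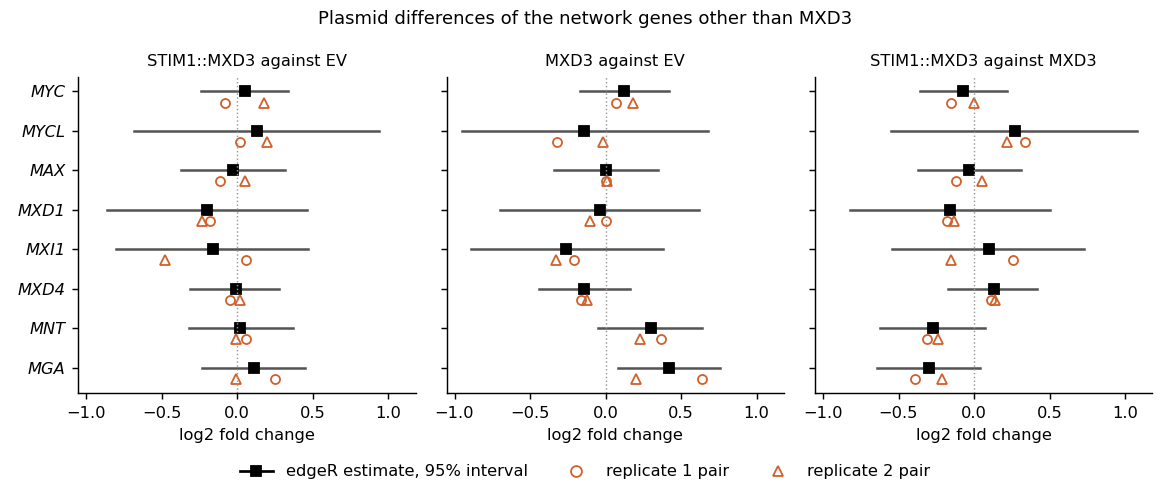
Log2 fold change of the 8 network genes other than MXD3 in the 3 plasmid comparisons, with the edgeR estimate and its 95% interval as a square and a line, and the value within each same-numbered pair of libraries as open symbols. Every interval includes 0 except that of MGA with MXD3 against EV, which runs from 0.08 to 0.76.

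The second axis of the data was the replicate number. Libraries numbered 2 were compared with those numbered 1 in a fit that kept the plasmid as a term, so that 3 libraries stood on each side. In this comparison 29.2% of all genes were called, 13.1% higher and 16.1% lower in replicate 2. The number of genes called was 4499, and 2580 without STIM1::MXD3 replicate 1. Of the 8 members other than MXD3, 3 were called with all libraries and with any 1 left out, and the labels give nothing of the numbers beyond their being replicates.

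MYCL was higher in replicate 2 by 0.68 ± 0.09 on the log2 scale [0.50, 0.87], or 1.61-fold (adjusted p = 5.7e-05, edgeR). The difference was 0.53 in EV, 0.82 with MXD3 and 0.70 with the fusion. MXD1 was lower in replicate 2 (-0.55 ± 0.07 [-0.70, -0.40], adjusted p = 5.28e-05, edgeR), by a log2 difference of -0.50, -0.60 and -0.55 in the same order. MXI1 was lower too (-0.47 ± 0.10 [-0.67, -0.27], adjusted p = 0.00176, edgeR). Its difference was -0.25 in EV, -0.37 with MXD3 and -0.78 with the fusion, and the estimate was -0.31 when STIM1::MXD3 replicate 1 was left out and -0.29 when replicate 2 was.

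The other members did not pass. MAX and MNT were higher in replicate 2 within each plasmid group, with estimates of 0.16 ± 0.08 and 0.17 ± 0.08 on the log2 scale (adjusted p = 0.167 and 0.151, edgeR). MYC was at 0.04 ± 0.07 [-0.11, 0.19], MGA at 0.08 ± 0.08, MXD4 at 0.09 ± 0.08 and MXD3 at -0.02 ± 0.09, with adjusted p-values between 0.442 and 0.885 in edgeR. The median of the 8 was 0.084 on the log2 scale, beside 0.006 over all genes.

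**Figure D3:**
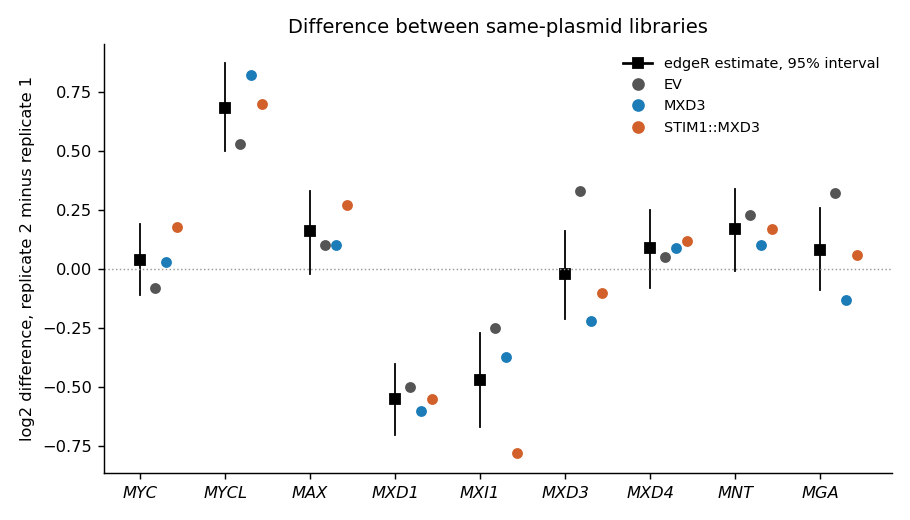
Log2 difference of replicate 2 minus replicate 1 for the 9 network genes, with the edgeR estimate over the 3 plasmid groups and its 95% interval in black, and the value in each group as a coloured point. MYCL lies above 0 and MXD1 and MXI1 below 0 in every group, and MYC and MGA have groups on both sides of 0.

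Levels of different genes were compared per kilobase of exon. In EV the mean was 35.9 CPM per kilobase for MYC, 15.6 for MXD1, 10.02 for MXI1, 7.51 for MYCL, 7.16 for MXD4, 6.94 for MAX, 3.99 for MNT, 3.87 for MGA and 2.22 for MXD3. The library ranges of MYCL and MXD4 overlapped, as did those of MXD4 and MAX and those of MNT and MGA, so these neighbours are not told apart. MYC transcript was therefore the most abundant of the network in K562 per length, and that of MXD3 the least, with the empty plasmid. Per kilobase of the longest transcript MYC remained apart from the others, and the EV ranges of MXD3 (4.09 to 5.13) and MGA (4.74 to 5.91) overlapped. With the MXD3-carrying plasmids MXD3 came to 494 and 403 CPM per kilobase (MXD3 and STIM1::MXD3). This was reckoned on the exons of the chromosomal gene, since the length of the plasmid transcripts was not stated. The shorter MXD3 stretch in the fusion was not allowed for, here or in the shares and ratios below.

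As a share of the summed per-kilobase level of all MAX partners, MXD3 held 2.23% and 2.93% in EV, 85.8% and 84.4% in the MXD3 libraries, and 83.3% and 82.4% in the fusion libraries. Its ratio to MAX on that scale went from 0.293 and 0.343 in EV to 79.2 and 63.1 with MXD3 and 67.2 and 52.3 with the fusion. The other partners together stood at 11.2 to 13.4 times MAX in the 6 libraries. These values describe transcripts, and levels of protein or of dimers were not measured.

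With MXD3 left out, MYC held 42.7% of the partner transcripts in both EV libraries, 44.1% and 46.9% in the MXD3 libraries, and 41.9% and 47.5% in the fusion libraries. MYC and MYCL together held 49.8%, 49.8% and 49.5% in the replicate 1 libraries of EV, MXD3 and STIM1::MXD3. In the replicate 2 libraries they held 53.6%, 57.2% and 59.8%. MXD1, MXI1 and MXD4 together held 41.9%, 38.7% and 41.03% in replicate 1 and 35.9%, 30.9% and 30.0% in replicate 2. The share of activator transcripts was thus higher in all 3 replicate 2 libraries than in all 3 replicate 1 libraries, and the summed share of MXD1, MXI1 and MXD4 lower. The share of MXD4 alone was higher in replicate 2, at 8.90% against 8.16% in EV, 7.96% against 7.17% with MXD3 and 8.89% against 8.16% with the fusion.

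**Figure D4:**
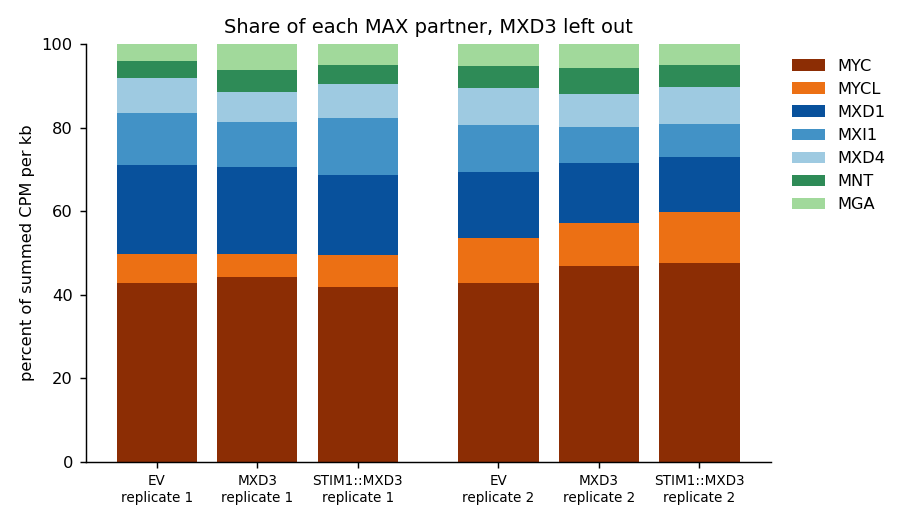
Share of each MAX partner in the summed level of partner transcripts per kilobase, in percent, with MXD3 left out, as stacked bars for the 6 libraries ordered by replicate number. MYC and MYCL together make up 49.5% to 49.8% of the bars of replicate 1 and 53.6% to 59.8% of those of replicate 2.

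Genes that work with the network were taken from 7 lists with 95 genes in all, of which 93 were tested and MYCN and RING1 were not. In the 3 plasmid comparisons 0 of the 93 were called in edgeR, with or without the block, and 0, 2 and 0 had an unadjusted p under 0.05. The relatives outside the members were MLX, MLXIP and MLXIPL, which form a parallel network that responds to glucose, and USF1 and USF2, which bind the same E-box. With the fusion 0 of these 5 were higher than in EV, with a median of -0.18 on the log2 scale. The SIN3 corepressor subunits were higher for 8 of 16 with the fusion and 5 of 16 with MXD3, each against EV, with medians of -0.01 and -0.04. The partners of MGA in PRC1.6 were higher for 6 and 5 of 10, MYC coactivators for 4 and 9 of 13, factors of MYC protein turnover for 10 and 9 of 14, and regulators of MYC RNA for 2 and 4 of 11. Their medians lay between -0.07 and 0.05 in both comparisons.

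BRMS1, a SIN3 subunit, was at 30.8 and 33.2 CPM with MXD3 and at 42.6 and 37.9 CPM in EV, a log2 fold change of -0.33 ± 0.13 (unadjusted p = 0.0425, adjusted p = 0.999, edgeR). NOP16, a nucleolar protein gene and MYC target, was at 28.6 and 24.4 CPM with MXD3 and at 16.3 and 22.3 CPM in EV. Its log2 fold change was 0.46 ± 0.19 (unadjusted p = 0.0488, adjusted p = 0.999, edgeR), and 0.25 without EV replicate 1. For both genes the MXD3 libraries did not overlap the EV libraries.

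Among 24 direct MYC target genes, which include enzymes, nucleolar proteins and translation factors, 22 were higher with the fusion than in EV. Their median log2 fold change was 0.10, beside 0.01 over all genes. BOP1 (-0.50 ± 0.26) and CCND2 (-0.14 ± 0.12) were the lower ones. Values near 0 are among those counted as higher, such as LDHA (0.01 ± 0.12). Within the replicate 1 pair BOP1, CCND2 and SHMT2 were lower with the fusion. Within the replicate 2 pair CCND2, EIF4A1, EIF4E, FBL, LDHA, ODC1 and PRDX3 were. These genes are named here after their values were seen, and the list was chosen with earlier results of these data known. CDK4, the cell cycle kinase, was at 286 and 276 CPM with the fusion and 251 and 252 CPM in EV (0.16 ± 0.11), and the chaperone gene HSPD1 at 695 and 639 against 610 and 604 CPM (0.14 ± 0.12). These examples were also chosen after their values were seen, and neither passed (adjusted p = 1.00, edgeR). With MXD3 against EV 12 of the 24 were higher, and 18 were higher with the fusion than with MXD3, with medians of 0.0 and 0.09.

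Between the replicate numbers 28 of the 93 list genes were called (30.1%, edgeR), 8 higher and 20 lower in replicate 2, beside the 29.2% of all genes. They held 3 of the 5 relatives, all lower, which were MLXIP (-0.38 ± 0.07), MLXIPL (-0.44 ± 0.09) and USF2 (-0.20 ± 0.07). They also held 4 of 10 PRC1.6 partners of MGA. RYBP (-0.68 ± 0.08), YAF2 (-0.53 ± 0.11) and RNF2 (-0.29 ± 0.08) were lower, and WDR5 (0.34 ± 0.07) was higher. Of the coactivators TRRAP, KAT5, CDK9 and ZBTB17 were called, all lower, and of the SIN3 subunits only ING1 (-0.43 ± 0.11), also lower. These genes are named after their values were seen.

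For each member, the genes whose log2 CPM followed it most closely over the 6 libraries were taken from 10248 genes with a mean of at least 5 CPM. Pearson's r is given as a description, since the points share library scaling and the split by replicate number. MXI1 was most like PLEKHF2 (r = 0.999) and KCTD3 (0.998), and MXD1 most like DENND1A (0.998) and FIZ1 (0.997). MYCL was most like MED10 (0.996) and RPL39 (0.995), and MAX most like ZNF782 (0.993) and PTPRS (0.992). For MGA the nearest were KIF14 (0.997) and LMBR1 (0.988), for MNT AGO1 (0.994) and NIN (0.987), for MYC STARD8 (0.989) and GFPT1 (0.987), and for MXD4 ZNF200 (0.985) and KRT18 (0.985). The nearest to MXD3, whose libraries fall into EV and the rest, were ZNF644 (0.986) and SLC25A32 (0.984). The number of genes with r over 0.9 was 1419 for MXI1, 1030 for MXD1, 558 for MAX and 433 for MYCL. It was 160 for MNT, 130 for MGA, 92 for MXD3, 87 for MXD4 and 60 for MYC.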

How the data were processed

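The values the authors deposited were raw counts per gene, 1 table per library, under NCBI Gene identifiers. Per the labels, poly A RNA of 6 K562 libraries was sequenced, and the submitters' processing notes name HISAT2 2.2.1, featureCounts 2.0.1 and hg19. The study also names the DRAGEN RNA Pipeline. Annotation and strand use are not given in the sources used here, so overlapping genes are uncertain. Among counts of 1 to 39 in a library, 59.8% to 67.3% were even, so some read pairs may be counted at both ends, and counts divided by 2 and rounded up were among the other settings. Of 25702 identifiers 23696 (92.2%) matched a symbol, and the others held 0.225% to 0.276% of the counts and were kept in library sizes.

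Genes were filtered with filterByExpr (15431 left) and scaled by TMM. Groups were compared with the two-sided quasi-likelihood F test of edgeR 4.0.16 (R 4.3.3) over all 6 libraries, with 1 coefficient per group, Benjamini-Hochberg adjustment over all genes tested and a threshold of 0.05. The replicate comparison added the replicate number to the plasmid as a term. DESeq2 1.42.0 was an alternative. The SE is the log2 fold change divided by the root of F. Exon lengths and positions came from GENCODE (GRCh37). The edgeR fit without the replicate block was tested on simulated data, for the fusion against EV. Those data held no difference between replicate numbers, so this test does not cover the fits with the block or that feature of the libraries.

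The members and lists were chosen with earlier results of these data known. Named genes were the members, STIM1, up to 3 genes per list and comparison with an unadjusted p under 0.05 and groups that did not overlap, and the 2 genes most like each member. List genes outside this rule are marked in the text as named after their values were seen. Replicate numbers come from the labels. Whether they pair the libraries was checked by correlating, between groups, how same-numbered libraries departed from the group mean. Across all genes tested r was 0.27 (EV with MXD3), 0.364 (EV with the fusion) and 0.45 (both constructs), and across 10250 genes of mean CPM 5 or more it was 0.621, 0.707 and 0.792. The numbers were taken to pair the libraries. The p-values of fits without the replicate number measure the spread between transfections of 1 cell line. In fits with that number, including the replicate comparison, they measure the spread left after plasmid and replicate number are accounted for. Those fits rest on only 2 replicate numbers, with 1 library of each plasmid per number.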

Additional observations from a re-analysis of the deposited data

Results flagged for a closer look

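MYCL was marked because its same-numbered libraries moved in opposite directions with the 2 constructs. Against EV the log2 difference was -0.32 and -0.02 with MXD3 and 0.02 and 0.20 with STIM1::MXD3. The direct comparison of the constructs, which tests this, gave 0.27 ± 0.34 (adjusted p = 1.00, edgeR). With the replicate block it was 0.28 ± 0.11 (adjusted p = 0.703, edgeR).

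STIM1 was marked for the same reason, with log2 differences from EV of -0.13 and -0.14 with MXD3 and of 1.2 and 1.37 with STIM1::MXD3, whose plasmid carries part of the gene. The constructs differed by 1.42 ± 0.14 (adjusted p = 0.381, edgeR), and with the block the adjusted p was 1.97e-07. Groups of 2 libraries were not examined for single libraries standing apart.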

How the results depend on the processing

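Direction and side of the threshold were recomputed for each result under other settings. Leaving out 1 library kept both in 214 cases and reversed the direction in 36. In 2 it brought STIM1 between replicate numbers past the threshold (adjusted p = 0.0348 and 0.0418, edgeR, without STIM1::MXD3 replicate 1 or 2, beside 0.0726). The other settings kept both in 296 cases, reversed 1 and brought STIM1 or MGA past the threshold in 9. The 296 include cases without an adjusted p, where only the direction was compared. These were MYCL, MAX, MXD1, MXI1, MXD4, MNT and MGA between the constructs in DESeq2 with the block. The number of genes called with the fusion against EV was 3 with the replicate block, 3 with DESeq2, 26 with DESeq2 and the block, and 2 without a filter on low counts. With MXD3 against EV it was 45, 3 and 252 under the first 3 of these. Between the constructs it was 1, 1, 14 and 1. DESeq2 with the block called 1 member, MGA with MXD3 (0.42, adjusted p = 0.022), and the replicate block changed no other call of a member. Without MXD3 replicate 2 the genes called with MXD3 were 2, in a range of 1 to 2, and between replicate numbers they ranged from 2580 (without STIM1::MXD3 replicate 1) to 4424, while the members called stayed at 3. MXD3 between replicate numbers turned from -0.02 to 0.03 with a mean CPM of at least 5. Leaving out 1 library moved the log2 fold change with the fusion against EV over -0.05 to 0.14 for MYC, -0.27 to 0.44 for MYCL, -0.17 to 0.10 for MAX, -0.50 to 0.07 for MXD1, -0.61 to 0.17 for MXI1, -0.08 to 0.05 for MXD4, -0.09 to 0.14 for MNT and -0.04 to 0.28 for MGA. With MXD3 against EV it ran over -0.61 to 0.23 for MYCL, -0.06 to 0.07 for MAX and -0.36 to 0.23 for MXD1. Between the constructs it ran over -0.17 to 0.01 for MYC, -0.14 to 0.75 for MYCL, -0.18 to 0.10 for MAX, -0.47 to 0.15 for MXD1 and -0.35 to 0.43 for MXI1. Between replicate numbers it ran over -0.03 to 0.10 for MYC, -0.16 to 0.11 for MXD3 and -0.04 to 0.20 for MGA. The signs of these small differences could thus change with 1 library left out. In the plasmid comparisons these fits had no replicate term, so leaving out a library also unbalanced the replicate numbers. With the fusion against EV, the same-numbered pairs shared a sign for MYCL (0.02 and 0.20) and MXD1 (-0.18 and -0.23). They did not for MYC, MAX, MXI1, MXD4, MNT and MGA. Per kilobase of the longest transcript the EV levels were 58.9 for MYC, 17.0 for MXI1, 13.8 for MAX, 11.6 for MXD4, 10.6 for MYCL, 7.05 for MNT, 5.33 for MGA and 4.61 for MXD3, so MAX then stood above MXD4 and MYCL. With 2 libraries a group, the width of the intervals limits what could be seen. The cause of the changed counts was not tested.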
